A study of Mus musculus with 4 samples.

Results

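The Hox genes of the 4 mammalian clusters, Hoxa, Hoxb, Hoxc and Hoxd, were examined in mammary tissue of mice with and without miR-21. Members were all loci of the deposited expression table with a name made of Hoxa, Hoxb, Hoxc or Hoxd and a number, and where a name had more than 1 locus the one with the higher mean of both genotypes was taken. Described here are 38 Hox names on 33 loci, each a separate entry of the table, of 22483 named loci and 30506 loci in all. Poly(A) RNA was sequenced from mammary gland of 4 virgin mice at an age of 2 months per the labels, 2 miR-21+/+ and 2 miR-21-/-, all listed under the mixed strain 129SV::FVB/N::C57BL/6. The miR-21-/- mice carry the deletion in every cell of the body, not only in mammary epithelium, and the sources used here do not give which gland was taken. For each locus the table holds 1 FPKM value per genotype (fragments normalized to transcript length and to all mapped fragments, so a level per length), so no value per mouse, no error and no test was available for any difference given here. Sequencing depth is unknown.

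Hox genes encode homeodomain transcription factors that give cells their position along the body axis. Each cluster is a row of genes read in the same direction, numbered from 1 at the 3′ end to 13 at the 5′ end, and genes with the same number in different clusters, called paralogs, descend from the same ancestral gene. Low numbers are used toward the head and high numbers toward the tail, the limb tips and the genital region, and many adult tissues keep part of this code. In the mammary gland, Hoxc8 takes part in placing the embryonic buds, the paralogs Hoxa9, Hoxb9 and Hoxd9 are together needed for the gland to expand in pregnancy, and Hoxa5 and Hoxd10 are known for their part in keeping the epithelium differentiated. The clusters also hold microRNA genes, Mir10a, Mir10b, Mir196a-1, Mir196a-2, Mir196b and Mir615, of which the miR-196 family is known to act on Hox mRNAs.

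Since the mice lack a microRNA, the mature sequences of miR-21 and of the main microRNAs of the clusters are shown first, from RefSeq (GRCm38.p6), with the seed (bases 2 to 8, the part that pairs with targets) in capitals. The miR-10 pair shares 1 seed and the miR-196 pair shares another, and neither is the seed of miR-21.
miR-21a-5p: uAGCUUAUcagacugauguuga
miR-10a-5p: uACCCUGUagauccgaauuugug
miR-10b-5p: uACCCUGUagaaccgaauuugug
miR-196a-5p: uAGGUAGUuucauguuguuggg
miR-196b-5p: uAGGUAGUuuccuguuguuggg

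The letters complementary to the miR-21 seed, ATAAGCT, were in none of the longest annotated 3′ UTRs of the 38 Hox genes (sense strand, GENCODE vM1 on mm9), while 6.10% of 19915 genes with a 3′ UTR held them. The miR-196 match, ACTACCT, was in 8 of the 38 Hox genes (21.1%) and in 5.72% of all genes. These 8 were Hoxa4, Hoxa5, Hoxa7, Hoxa9, Hoxb1, Hoxb6, Hoxb7 and Hoxc8. Hoxa7 held 4 of these matches and Hoxc8 held 3. The miR-10 match, ACAGGGT, was in Hoxd1 only, 1 of 38, against 11.2% of all genes, and the miR-615-3p match, GGCTCGG, was in Hoxb4 only, against 2.44% of all genes. A match of these letters is a description and not a shown site, and its absence says only that the letters are not in that UTR.

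The 3′ UTRs of the Hox gene with most matches and of the most abundant Hox gene are shown by these windows on mm9, with the miR-196 seed match in capitals. The Hoxb8 window was looked for after the seed search did not list that gene, and its capitals mark instead the bases that pair with miR-196a over its full length. There, 21 of 22 bases paired and the remaining 1 stood opposite as a G:U pair inside the seed, which is why the seed search passed over it. The next best window among the 38 genes, in Hoxd8, paired at 15 bases.
Hoxb8, chr11:96146202-96146223, + strand: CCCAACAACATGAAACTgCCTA
Hoxa7, chr6:52165399-52165420, - strand: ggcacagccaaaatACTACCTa
Hoxa7, chr6:52165362-52165383, - strand: agaggcactcccaaACTACCTa
Hoxa7, chr6:52165230-52165251, - strand: aaaccatgatcaatACTACCTa
Hoxa7, chr6:52165209-52165230, - strand: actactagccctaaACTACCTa
Hoxc8, chr15:102823407-102823428, + strand: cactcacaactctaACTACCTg
Hoxc8, chr15:102824164-102824185, + strand: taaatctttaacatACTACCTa
Hoxc8, chr15:102824302-102824323, + strand: cagcgtattttatcACTACCTa

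Hox transcripts were present in both genotypes from all 4 clusters. Above 1 FPKM in at least one genotype were 24 of the 38 names, on 19 of the 33 loci, while 14 names were at or under it and are given below too. The 19 loci had mean levels of 1.10 to 14.02 FPKM, which placed them between percentiles 41.5 and 78.2 of all named loci. The 5 most abundant loci were the same in miR-21+/+ and miR-21-/- tissue. Hoxc8 was first and Hoxc10 second in both genotypes, Hoxc6 and Hoxd8 exchanged the next places, and the locus of Hoxd3 and Hoxd4 came next in both. Since 9 names lay on 4 loci that the authors' assembly had merged (Hoxa3 with Hoxa5 and Hoxa6, Hoxb2 with Hoxb3, Hoxb5 with Hoxb6, and Hoxd3 with Hoxd4 and Mir10b), the level of each of these genes alone is not known. Hoxa4 and Hoxb4 were separate entries with the same coordinates as the merged loci of Hoxa3, Hoxa5 and Hoxa6 and of Hoxb5 and Hoxb6, so their values are also uncertain.

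The levels followed position within the clusters. Of the names in groups 4 to 8, 14 of 15 were above 1 FPKM, the exception being Hoxa4. In groups 1 to 3 this was 4 of 7 names, in groups 9 and 10 it was 6 of 7, and in groups 11 to 13 it was 0 of 9. The 4 passing names of groups 1 to 3, Hoxa3, Hoxb2, Hoxb3 and Hoxd3, all took the value of a merged locus. Hoxa2, Hoxb1 and Hoxd1, each with a locus of its own, were under 1 FPKM. The count for groups 1 to 3 is therefore uncertain. The highest level in groups 11 to 13 was that of Hoxc11, 0.0948 FPKM in miR-21+/+ and 0.0420 FPKM in miR-21-/- tissue. By this limit Hoxa, Hoxc and Hoxd ended toward the 5′ side after group 10, and Hoxb after group 8.

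**Figure D1:**
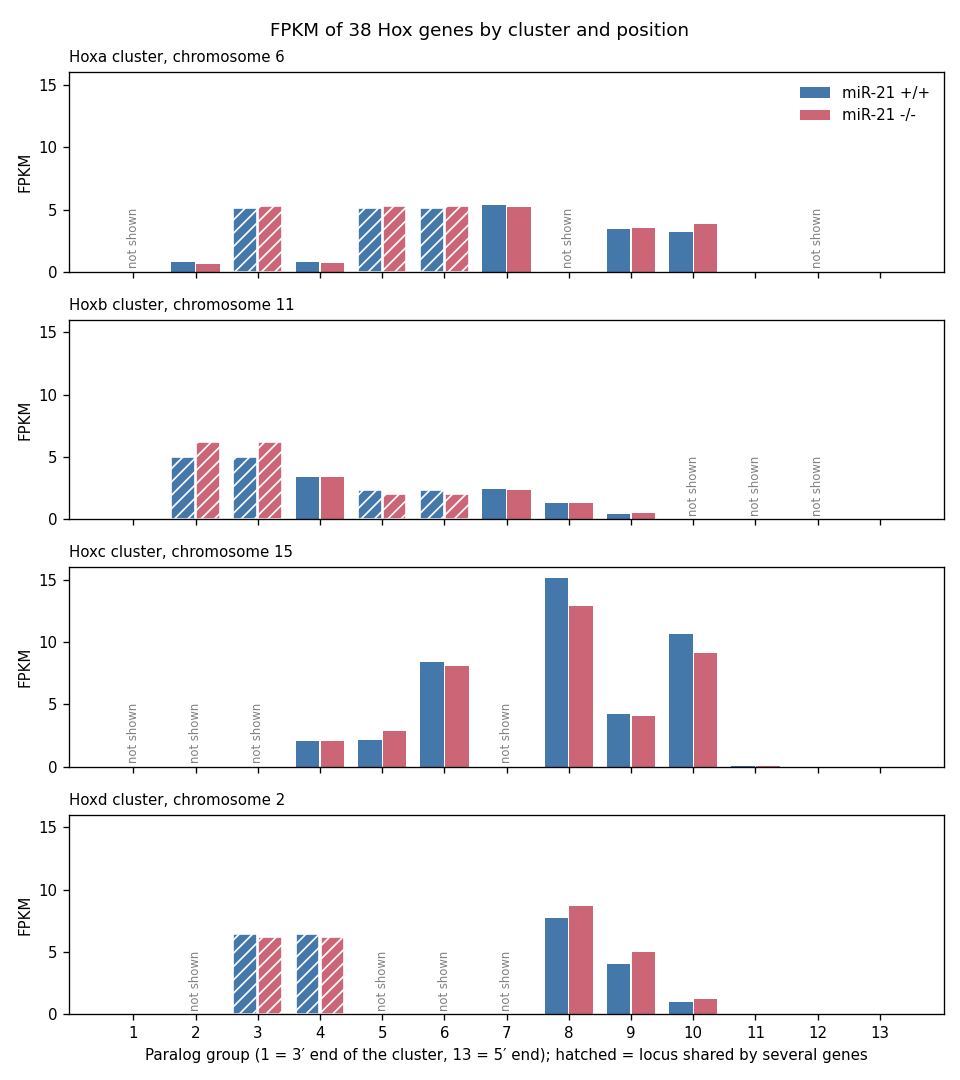
FPKM of each Hox gene (vertical axis, 1 panel per cluster) against its paralog group (horizontal axis), with blue bars for miR-21+/+ and red bars for miR-21-/- tissue. Each bar is 1 value for 2 mice, so there are no error bars, and hatched bars repeat the value of a locus shared by several genes. Paired bars were close in height, and groups 11 to 13 were near 0 in all 4 panels. Positions without a gene or not reported are marked as not shown.

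The Hoxc cluster (chr15:102751562-102867334 on mm9) was the most abundant, with a summed level of 42.8 FPKM in miR-21+/+ and 39.1 FPKM in miR-21-/- tissue, 44.7% and 41.0% of the summed FPKM of these Hox genes. Hoxc8, known also for holding back the brown fat programme in white fat progenitors, was at 15.1 FPKM in miR-21+/+ and 12.9 FPKM in miR-21-/- tissue, a log2 ratio of miR-21-/- over miR-21+/+ of -0.22. Hoxc10, a gene of lumbar level that is typical of subcutaneous fat, was at 10.7 and 9.12 FPKM, a log2 ratio of -0.23, the lowest of the 19 loci. Both of the most abundant Hox genes were thus lower in the knockout by a similar small amount.

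Hoxc6, a thoracic gene studied in breast tissue for its regulation by steroid hormones, was at 8.44 and 8.05 FPKM in miR-21+/+ and miR-21-/- tissue (log2 ratio -0.07). Hoxc9, another thoracic gene, was at 4.25 and 4.07 FPKM (log2 ratio -0.06). Hoxc4, at the 3′ end of the cluster, was at 2.10 and 2.08 FPKM (log2 ratio -0.01). Of the 6 Hoxc loci above 1 FPKM only Hoxc5 was higher in the knockout, with 2.18 FPKM in miR-21+/+ and 2.84 FPKM in miR-21-/- tissue and a log2 ratio of 0.38. With both columns scaled to equal sums over named loci, 2 of the 6 and not 5 were lower.

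At the 5′ side, Hoxc10 and Hoxc11 lay 10094 bases apart and differed from 10.7 to 0.0948 FPKM in miR-21+/+ and from 9.12 to 0.0420 FPKM in miR-21-/- tissue. Hoxc12 was listed at 0 in both genotypes. Hoxc13, known for its role in hair and nail, was listed at 0.0101 FPKM in miR-21+/+ and at 0 in miR-21-/- tissue. At these levels no difference between the genotypes could be read, since depth and error are unknown.

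The Hoxd cluster (chr2:74506367-74603199) moved the other way as a sum, from 19.1 FPKM in miR-21+/+ to 21.2 FPKM in miR-21-/- tissue, or from 19.98% to 22.2% of the summed Hox FPKM. Its sum was also higher with sums equalised over named loci and lower with sums equalised over all loci, as were those of the other clusters under the latter. Hoxd8 was at 7.75 and 8.71 FPKM (log2 ratio 0.17). Hoxd9, of the paralog group needed in pregnancy, was at 4.04 and 5.01 FPKM (log2 ratio 0.31). Hoxd10 was at 0.952 and 1.25 FPKM (log2 ratio 0.39), the highest ratio of the 19 loci, and it passed 1 FPKM through the knockout value only.

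The locus of Hoxd3 and Hoxd4, which also carries Mir10b, was at 6.40 and 6.23 FPKM in miR-21+/+ and miR-21-/- tissue (log2 ratio -0.04). Levels fell from Hoxd8 through Hoxd9 to Hoxd10 in both genotypes. Hoxd11, Hoxd12 and Hoxd13, which pattern the forearm and digits, and Hoxd1, at the opposite end, were listed at 0 in both. Hoxd10 and Hoxd11 lay 7809 bases apart.

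The Hoxa genes described here, from Hoxa2 to Hoxa13 (chr6:52112510-52210874), summed to 18.8 FPKM in miR-21+/+ and 19.2 FPKM in miR-21-/- tissue. Apart from Hoxa4, their loci from group 3 to group 10 were between 3.23 and 5.40 FPKM in both genotypes. Hoxa7 was at 5.40 and 5.24 FPKM (log2 ratio -0.04). The locus of Hoxa3, Hoxa5 and Hoxa6 was at 5.14 and 5.27 FPKM (log2 ratio 0.04). Hoxa9 was at 3.44 and 3.50 FPKM (log2 ratio 0.02). These 3 loci had the smallest log2 ratios of the Hoxa loci above 1 FPKM.

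Hoxa10, best known from the uterus, was at 3.23 FPKM in miR-21+/+ and 3.81 FPKM in miR-21-/- tissue (log2 ratio 0.24), while Hoxa11, whose locus lay 1251 bases from it, was at 0.00661 and 0.00792 FPKM. Hoxa13, needed for limb tips and genital tubercle, was listed at 0.0234 and 0 FPKM. Among the 3′ genes, Hoxa2, known for patterning the branchial arches, was at 0.766 and 0.617 FPKM, and Hoxa4 was at 0.812 and 0.730 FPKM. Hoxa4 was thus below the merged locus on both sides of it in both genotypes.

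The Hoxb cluster (chr11:96055675-96229567) was the least abundant, with 14.97 FPKM in miR-21+/+ and 15.9 FPKM in miR-21-/- tissue. Apart from Hoxb1, its levels were highest at the 3′ side and fell toward the 5′ side, with Hoxb7 slightly above the locus before it. The locus of Hoxb2 and Hoxb3 was highest, at 4.997 and 6.19 FPKM (log2 ratio 0.31). Hoxb4, known from blood stem cells, was at 3.37 and 3.41 FPKM (log2 ratio 0.02). The locus of Hoxb5 and Hoxb6 was at 2.33 and 2.07 FPKM (log2 ratio -0.17).

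Hoxb7, studied in breast cancer, was at 2.46 and 2.33 FPKM in miR-21+/+ and miR-21-/- tissue (log2 ratio -0.08). Hoxb8, the gene with the nearly full miR-196a match shown above, was at 1.33 and 1.34 FPKM (log2 ratio 0.01). Hoxb9 was at 0.475 and 0.529 FPKM, below its paralogs Hoxa9, Hoxc9 and Hoxd9, all of which were above 3 FPKM in both genotypes. Hoxb13, a gene of the prostate, and Hoxb1, a hindbrain gene, were listed at 0 in both.

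No Hox locus above 1 FPKM was 2-fold apart between the genotypes, in either direction, and none was 1.5-fold apart. Among all 13565 named loci above 1 FPKM, 4.64% were at least 2-fold apart and 11.9% at least 1.5-fold apart. Among the 8240 of them with mean levels in the range of the Hox loci, a comparison chosen after the values were seen, these shares were 4.83% and 12.8%. At such shares about 1 locus in 20 would pass the 2-fold limit, so the count of 0 among 19 is near the background. Of the 19 loci 10 were higher and 9 lower in the knockout, with sums equalised over named loci 16 were higher and 3 lower, and with sums equalised over all loci, which shifts every log2 ratio in the table by -0.63, all 19 were lower. Their median log2 ratio was 0.01, against -0.03 for all named loci. The median size of the log2 ratio, without its sign, was 0.079 for the Hox loci and 0.15 for all named loci. Across the 19 loci, log2 FPKM of the 2 genotypes had a Pearson r of 0.98, a description across genes of the same libraries, which are not independent replicates.

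**Figure D2:**
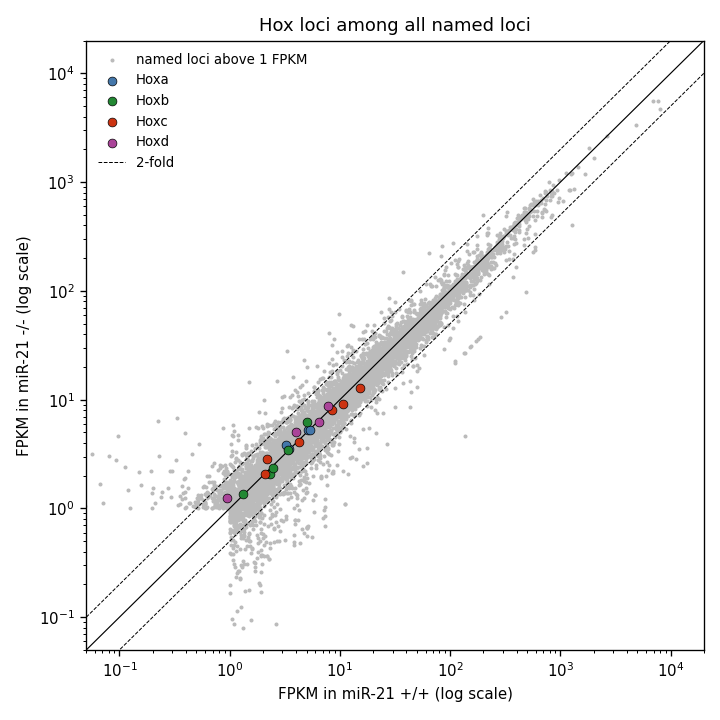
FPKM in miR-21-/- (vertical axis, log scale) against FPKM in miR-21+/+ tissue (horizontal axis, log scale) for named loci above 1 FPKM in at least one genotype, with loci at 0 in either not drawn. The 19 Hox loci, coloured by cluster, lay along the diagonal and inside the dashed 2-fold lines.

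For 6 Hox names the table held a second locus on the opposite strand. The strand was read from the order of the table, in which each chromosome runs through + strand, - strand and unstranded loci, and 98.0% and 98.3% of annotated genes in the first 2 runs had the strand of their run. Opposite to Hoxd8, 3.89 and 3.75 FPKM were listed in miR-21+/+ and miR-21-/- tissue, 50.1% and 43.0% of the level on the strand of the gene. The gene 1700109F18Rik is annotated there, but the separate locus under that name, chr2:74548101-74587230, was at only 0.0919 and 0.185 FPKM. Opposite to Hoxb3, 4.01 and 3.66 FPKM were listed, where Gm11536 and Hoxb3os are annotated. Opposite to Hoxb5, where 0610040B09Rik is annotated, the values were 1.54 and 1.15 FPKM. At the remaining 3 names GENCODE vM1 holds no gene on the opposite strand, and the values there were 2.53 and 2.21 FPKM for Hoxc6, 1.06 and 1.00 FPKM for Hoxc9, and 0.549 and 0.800 FPKM for Hoxa10. Log2 ratios of the opposite loci ran from -0.43 for Hoxb5 to 0.54 for Hoxa10, and 5 of the 6, all but Hoxa10, were lower in the knockout. The TruSeq kit named in the labels does not mark the strand in its standard form, so reads of a gene and of an antisense transcript can be told apart only at splice junctions, and the values of both strands are uncertain.

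**Figure D3:**
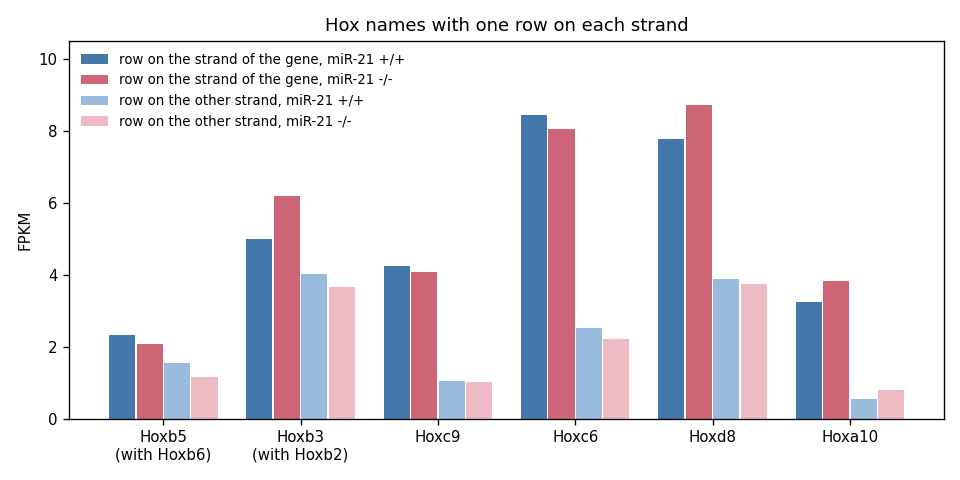
FPKM (vertical axis) of 6 Hox names with a locus on each strand, with dark bars for the locus on the strand of the gene and light bars for the other, blue for miR-21+/+ and red for miR-21-/-. At each of the 6 names the locus on the strand of the gene was the higher one in both genotypes.

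Inside the clusters lay 13 loci without a gene name, some of them overlapping Hox genes, and 3 of the 13 were above 1 FPKM in at least one genotype. The most abundant, chr11:96109918-96110554, was 637 bases long, overlapped the annotated gene Gm11539 and was at 8.33 and 8.49 FPKM in miR-21+/+ and miR-21-/- tissue, above every Hoxb locus. It lay 22090 bases from Hoxb9, in the long interval before Hoxb13. Next were chr15:102854078-102854333, inside the annotated Hoxc4 gene, at 2.42 and 1.15 FPKM (log2 ratio -1.08), and chr15:102863666-102864027, at 1.38 and 0.921 FPKM (log2 ratio -0.58). The latter also overlapped the annotated Hoxc4 gene and lay 175 bases from the Hoxc4 locus, whose log2 ratio was -0.01. Of the 13 loci 9 were in the Hoxc cluster, 7 of them between the Hoxc5 and Hoxc4 loci, and most of these were under 1 FPKM in both genotypes.

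The other 9 named loci inside the clusters were all under 1 FPKM. They included Mir196b at 0.744 and 0.938 FPKM and Mir196a-1 at 0.412 and 0.437 FPKM in miR-21+/+ and miR-21-/- tissue. Mir196a-2, Mir10a and Mir615 were listed at 0 in miR-21+/+ and at 0.689, 0.571 and 0.204 FPKM in miR-21-/- tissue. Poly(A) libraries do not measure mature microRNAs, so these values speak only of longer transcripts placed there. Hoxa11as, an antisense RNA, was at 0.0165 and 0.0304 FPKM.

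CG pairs were counted in the promoters of the Hox genes, taken as the 250 bases before the start of the transcript with the longest coding sequence on mm9. At least 10 CG pairs were found in 63.2% of the 38 Hox promoters and in 47.7% of 22589 promoters. This was so for 13 of the 24 names above 1 FPKM, or 54.2%, near the share of all promoters. For names at or under 1 FPKM it was 11 of 14, or 78.6%, and for genes of groups 11 to 13 it was 8 of 9.

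Hox proteins bind DNA together with TALE homeodomain proteins of the Pbx, Meis and Pknox families, and the list used here also holds Tgif1 and Tgif2, TALE genes of another family. Of these 11 genes 10 were above 1 FPKM, 7 higher and 3 lower in the knockout, with a median log2 ratio of 0.06 against -0.03 for all named loci. With sums equalised over named loci all 10 were higher. Pknox2 was the only one of the 10 at least 2-fold apart, against 4.64% of all named loci above 1 FPKM. It was at 0.951 FPKM in miR-21+/+ and 2.20 FPKM in miR-21-/- tissue (log2 ratio 1.21) and passed 1 FPKM through the knockout value only. Pbx2, on a locus shared with Ager, was the most abundant and had the lowest ratio, with 18.2 and 17.0 FPKM (log2 ratio -0.10).

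Polycomb complexes keep Hox genes silent outside their domain, and trithorax proteins keep them active. Of 27 Polycomb genes above 1 FPKM 15 were higher and 12 lower, with a median log2 ratio of 0.03. None was at least 2-fold apart, while 4.64% of all named loci above 1 FPKM were. The range ran from Pcgf1, at 5.77 and 4.67 FPKM in miR-21+/+ and miR-21-/- tissue (log2 ratio -0.30), to Rybp, a subunit of variant complexes, at 11.4 and 16.7 FPKM (log2 ratio 0.55). Rbbp7, a histone-binding subunit shared with other complexes, was the most abundant at 51.4 and 48.8 FPKM. Of 15 trithorax and related genes 9 were higher and 6 lower, all between log2 ratios of -0.17 for Psip1 and 0.11 for Kdm6a, a demethylase that removes the Polycomb mark. Dpy30, a core subunit of the methyltransferase complexes, was the most abundant at 23.5 and 22.5 FPKM. With sums equalised over named loci 21 of the 27 and 14 of the 15 were higher.

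Retinoic acid and the Cdx factors set Hox domains in the embryo. Cdx1, Cdx2 and Cdx4 were listed at 0 in both genotypes. Of 13 genes of retinoic acid synthesis, breakdown, binding and reception above 1 FPKM 11 were higher and 2 lower in the knockout, with a median log2 ratio of 0.13. With sums equalised over named loci 12 were higher and 1 lower. With sums equalised over all loci 1 was higher and 12 lower, so the direction depended on the scaling. Among the 13, only Crabp2 was at least 2-fold apart, against 4.64% of all named loci above 1 FPKM. Crabp2, which carries retinoic acid to its nuclear receptor, was at 2.98 FPKM in miR-21+/+ and 6.21 FPKM in miR-21-/- tissue (log2 ratio 1.06). Its paralog Crabp1 was at 7.11 and 4.82 FPKM (log2 ratio -0.56), the lowest ratio of the list. Rxra, the receptor partner, was the most abundant at 28.9 and 27.5 FPKM.

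Other homeobox and T-box genes with positional roles varied more. Of 16 above 1 FPKM 7 were higher and 9 lower in the knockout, with a median log2 ratio of -0.06. The lowest was Alx4, a gene of limb and skull, at 8.71 FPKM in miR-21+/+ and 4.87 FPKM in miR-21-/- tissue (log2 ratio -0.84). Highest was Dlx5, at 0.424 and 1.11 FPKM (log2 ratio 1.39), which passed 1 FPKM through the knockout value only. Prrx1, a mesenchymal gene of the limb and trunk, was the most abundant at 23.6 and 26.3 FPKM.

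**Figure D4:**
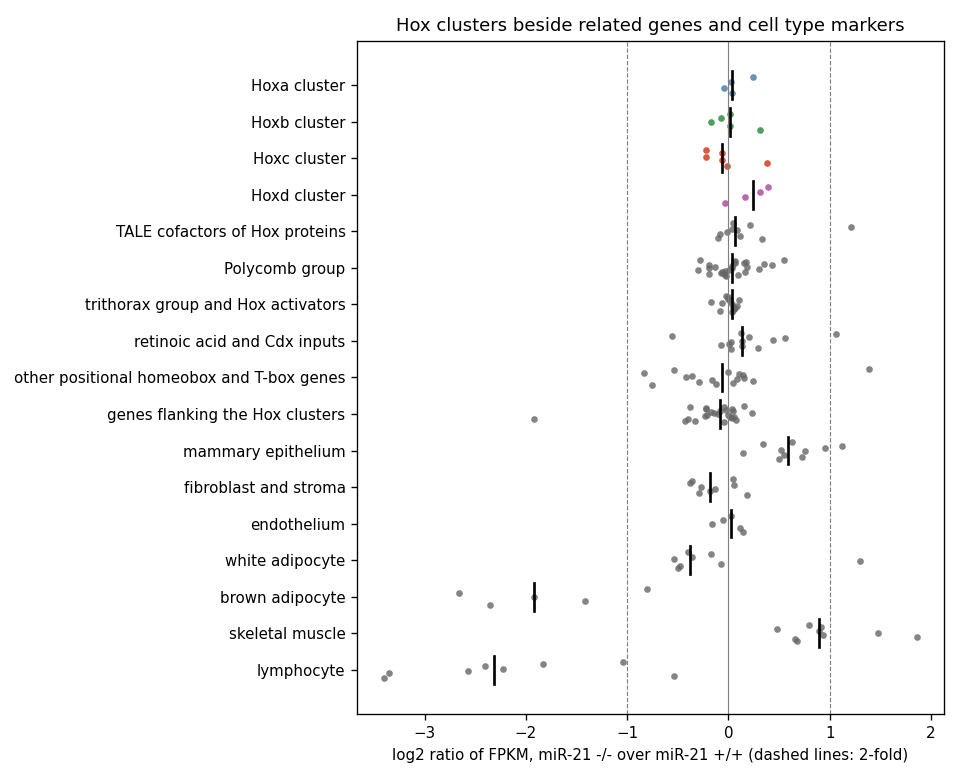
Log2 ratio of FPKM, miR-21-/- over miR-21+/+ (horizontal axis), of each locus above 1 FPKM (points) in the Hox clusters, in lists of related genes and in lists of cell type markers (rows), with the median as a black bar. The Hox, Polycomb and trithorax points lay between the dashed 2-fold lines, while most brown adipocyte and lymphocyte points lay below them.

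The tissue itself differed between the genotypes in its cell type markers. All 10 mammary epithelial markers were above 1 FPKM in both and higher in the knockout, from 694 to 973 FPKM in sum (median log2 ratio 0.58), as were all 9 skeletal muscle markers, from 1090 to 1823 FPKM (median 0.89). Of 8 white adipocyte markers 7 were lower (sum 11401 to 8405 FPKM, median -0.38). All 5 brown adipocyte markers above 1 FPKM were lower (median -1.92), and the sum over all 6 listed went from 124 to 42.7 FPKM. The 8 lymphocyte markers were all lower (sum 129 to 65.1 FPKM, median -2.31). Fibroblast markers were lower for 6 of 9 (sum 5318 to 4754 FPKM, median -0.18), and endothelial markers were lower for 2 of 5 (sum 134 to 139 FPKM, median 0.03). With sums equalised over all loci, 4 of the 10 epithelial and 8 of the 9 muscle markers were higher. All fibroblast and endothelial markers were lower under that scaling, and the fat and lymphocyte directions kept their counts. With sums equalised over named loci, 4 of the 5 endothelial and 2 of the 8 white adipocyte markers were higher. The other marker lists kept their counts under it. No marker was listed at 0. Hox genes are expressed in epithelium, stroma and fat, and the part of these shifts in the Hox values was not tested. In whole tissue, fewer cells of a type and less RNA per cell cannot be told apart. The locus of the targeted gene, shared with its host Vmp1, was at 42.5 FPKM in miR-21+/+ and 68.2 FPKM in miR-21-/- tissue, and since it measures the host transcript it does not check the labels.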

How the data were processed

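TruSeq poly(A) libraries were sequenced from one end. The authors used TopHat with the mm9 genome, followed by Cufflinks and Cuffdiff, and the deposited table gives 1 FPKM value per genotype and locus, pooled over 2 mice. Program versions, annotation and normalization options were not given in the sources used here. The table also holds the authors' fold changes, test statistics, p-values, q-values and calls, none of which were used. Members and gene lists were chosen with earlier results of these data known. The rule found 39 Hox names, of which 1 is not reported here and enters no Hox count, and 38 are described, while of each list the members with the highest and lowest log2 ratio, those at least 2-fold apart and the most abundant were named.

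Log2 ratios were taken directly for loci above 1 FPKM in at least one genotype, without a pseudocount. Coordinates are mm9 (NCBIM37) and 1-based, and sequence windows used GENCODE vM1. The strand of loci, the pairing with miR-196a, the promoter windows and the tolerance of 0.1 on the log2 scale were chosen after the data were seen. Of 17 noncoding genes of the clusters sought by symbol 8 were found, and of 19 trithorax symbols 15. Scripts ran in Python 3.11.15 with pandas 2.3.3 and numpy 2.4.6, and ratios, locus choice and word search were tested on simulated data.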

Additional observations from a re-analysis of the deposited data

How the results depend on the processing

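Counts of Hox loci at least 2-fold apart stayed at 0 under each alternative minimum, pseudocount, scaling and locus choice except without any minimum, where 1 locus passed, Hoxc11 (log2 ratio -1.18), at under 0.1 FPKM. Hoxa13 and Hoxc13, listed at 0 in miR-21-/- tissue only, had no ratio and were not among the loci counted there. Scaling to equal sums over all loci shifted every log2 ratio by -0.63, since unnamed loci summed higher in the knockout column. Under it the Hox median became -0.62 and the cluster sums -0.60 (Hoxa), -0.55 (Hoxb), -0.76 (Hoxc) and -0.48 (Hoxd), while the median of all named loci became -0.66. Equal sums over named loci shifted ratios by 0.10 and centring by 0.03. Names above the minimum numbered 15 when merged loci were left out, because fewer loci were counted, and 13 above 5 FPKM. The 4 passing names of groups 1 to 3 were all on merged loci and so were not among the 15. With log2(FPKM + 1), the ratios of Hoxc5 and Hoxd10 shrank by more than 0.1. No paired analysis was possible because mice of a genotype share 1 pooled value, and leaving out each mouse was not run for the same reason. Small differences between the genotypes can therefore not be told from differences between mice.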

Other observations

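Genes flanking the clusters are of interest because long-range enhancers of Hox genes lie among them. Of 25 flanking genes above 1 FPKM 8 were higher and 17 lower in the knockout, with a median log2 ratio of -0.08, and with sums equalised over named loci 13 were higher and 12 lower. Of the 25, only Skap1 was at least 2-fold apart, against 4.64% of all named loci above 1 FPKM. Skap1, an adaptor of T cells, lies 96.3 kb beyond the Hoxb cluster. It was at 2.52 FPKM in miR-21+/+ and 0.663 FPKM in miR-21-/- tissue (log2 ratio -1.92) and passed 1 FPKM through the miR-21+/+ value only. The 8 lymphocyte markers were also lower in the knockout, and their part in the Skap1 value was not tested. The highest ratio was that of Calcoco1, at 31.5 and 36.9 FPKM (log2 ratio 0.23), and Atp5g3, a subunit of mitochondrial ATP synthase, was the most abundant at 295 and 254 FPKM. Evx1 and Evx2, homeobox genes at the 5′ ends of Hoxa and Hoxd, were listed at 0 in both genotypes.

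The Hoxb cluster begins 9.56 Mb from the Mir21 and Vmp1 locus on chromosome 11. In mice of mixed strain, an effect of strain variants linked to the deleted gene and an effect of the deletion cannot be told apart there. The log2 ratio of the Hoxb sum was 0.09, and its loci above 1 FPKM ran from -0.17 to 0.31. The part of linked variants in these values was not tested.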
